A study of Mus musculus with 6 samples.

Results

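The cytosolic ribosomal protein genes were examined in the RNA-seq of murine keratinocyte lines. A gene was taken as a member when its symbol was Rpl or Rps followed by digits and an optional a, l, x or y, or was *Rplp0*, *Rplp1*, *Rplp2* or *Rpsa*. The rule found 82 of the 24982 genes listed. They were separated into 76 core members, 46 of the large subunit and 30 of the small subunit, and 6 like paralogs whose symbols end in l. The groups were 3 libraries of KSFM-Ca2+ cells and 3 libraries of DKSFM cells. Both lines come from neonatal skin of C57BL/6 mice and received no treatment. The KSFM-Ca2+ cells were derived and kept in a keratinocyte serum-free medium low in calcium, and the DKSFM cells descend from them after adaptation to a defined keratinocyte serum-free medium. The comparison is between a line and its adapted descendant, so effects of the medium and of the adaptation cannot be told apart. Whether a replicate was its own culture is not stated, so p-values measure the spread between these libraries, which may be technical.

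Ribosomal proteins assemble with ribosomal RNA into the small (40S) and large (60S) subunits that read messenger RNA and join amino acids. Their messenger RNAs are among the most abundant of a growing cell, and the subunits need most of these proteins in equal numbers. Most ribosomal protein messenger RNAs begin with a cytosine and a run of pyrimidines, the 5′ TOP element, through which their translation follows growth signals. A few members have paralogs with a restricted pattern, such as *Rpl10l* and *Rpl39l* in the male germ line and *Rpl3l* in striated muscle. The family also has many processed pseudogenes, so reads of members and their copies can be shared.

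The values are the mean read coverage per base of each gene, and their sum over genes was 1601676, 1238411 and 1057750 in the KSFM-Ca2+ libraries, in the order of their replicate numbers, and 1174348, 1239438 and 1170675 in the DKSFM libraries. They were scaled between libraries before any comparison (normalized coverage). Levels of different genes are compared with a caution, because reads shared with copies of a gene could not be separated. The core members had a median normalized coverage of 1411 over the 6 libraries, against 25.9 for the 12450 genes tested, and 36 of them were among the 100 genes of highest coverage. The levels within the family were unequal. *Rps21* of the small subunit had the highest mean and *Rps15a*, also of the small subunit, the lowest. *Rps21* (chromosome 2 from 180257379 to 180258444) reached 17800, 17938 and 19374 in the KSFM-Ca2+ libraries and 22340, 21838 and 21369 in the DKSFM libraries. *Rps15a* (chromosome 7 from 118104374 to 118116147) had 153, 152 and 151 in the KSFM-Ca2+ libraries and 141, 143 and 136 in the DKSFM libraries. Neither gene's groups overlapped, and each gene differed little between lines beside the distance between them. *Rps21* alone made up 11.8% ± 0.265 of the core coverage in the KSFM-Ca2+ cells and 13.3% ± 0.0900 in the DKSFM cells (SD, n = 3). Both calls depended on a choice. The log2 fold change of *Rps21*, DKSFM over KSFM-Ca2+, was 0.25 (standard error 0.04, adjusted p = 6.07e-04) and became -0.29 under quantile normalization, which gives the highest genes of all libraries shared values. Centred on its 20 Mb window, *Rps21* was not called (0.02, adjusted p = 0.623). That of *Rps15a* was -0.12 (standard error 0.03, adjusted p = 0.00665), and the call was lost when some single libraries were left out. The adjusted p was 0.0238 without KSFM-Ca2+ replicate 1, 0.0237 without KSFM-Ca2+ replicate 2 and 0.0160 without KSFM-Ca2+ replicate 3. It was 0.0199 without DKSFM replicate 1 and 0.0227 without DKSFM replicate 3. With a correction for length and GC content its log2 fold change was -0.00 (adjusted p = 0.979), and centred on its window *Rps15a* was called higher (0.27, adjusted p = 4.54e-05).

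Summed over the 76 core members, the share of all gene coverage was 12.4%, 12.6% and 12.8% in the KSFM-Ca2+ libraries and 13.5%, 13.2% and 13.1% in the DKSFM libraries. Every DKSFM library was above every KSFM-Ca2+ library, by a margin smaller than the range within either group. The rise was seen in the small subunit genes, with 6.00% ± 0.101 in the KSFM-Ca2+ cells and 6.65% ± 0.0792 in the DKSFM cells (SD, n = 3). They include *Rps21*, which alone made up 11.8% and 13.3% of the core coverage in these lines. The small subunit share without *Rps21* is not given here. The large subunit genes had 6.62% ± 0.113 and 6.60% ± 0.114, which overlapped. These shares are relative, and more ribosomal protein RNA per cell and less of other RNA cannot be told apart in them. Nor can fewer cells of a type and less RNA per cell be told apart in bulk libraries. The coverage listed for ribosomal RNA itself moved the other way. The precursor *Rn45s* and *Mir6236*, an entry that lies in ribosomal RNA, together held 0.458%, 0.474% and 0.302% of the coverage in the KSFM-Ca2+ libraries and 0.0321%, 0.0345% and 0.105% in the DKSFM libraries. The libraries were made from polyadenylated RNA, so these entries measure a residue, and its part in the other values was not tested.

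**Figure D1:**
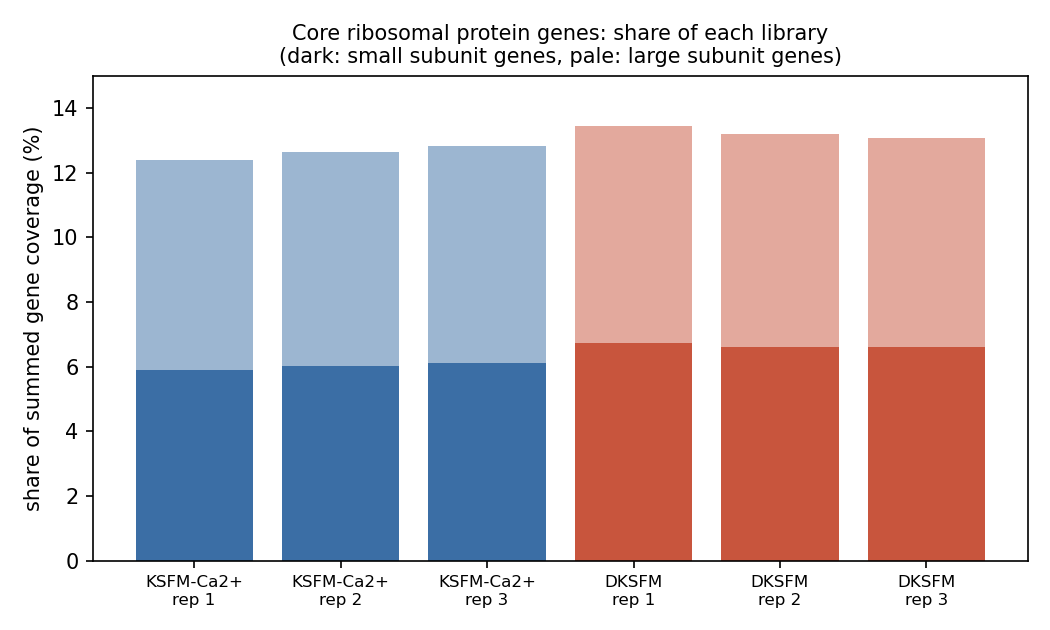
Share of the summed gene coverage taken by the 76 core ribosomal protein genes, in percent, for each of the 6 libraries, with the 30 small subunit genes dark and the 46 large subunit genes pale. The total is 12.4% to 12.8% in the KSFM-Ca2+ libraries (blue) and 13.1% to 13.5% in the DKSFM libraries (red).

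All 76 core members passed the filter on low values. At an adjusted p under 0.01, 34 were higher and 22 lower in the DKSFM cells, and 20 were not called. Of all genes tested, 35.6% were higher and 36.8% lower, so a call in itself was common in this comparison. Among the 1659 tested genes with at least the mean coverage of *Rps15a*, 37.2% were higher and 44.5% lower. The libraries did not overlap in 63 core members, 39 higher and 24 lower in the DKSFM cells, where 41.4% of all genes tested were higher without overlap and 41.7% lower. A change of at least 2-fold was called for 1 core member, *Rpl32*, against 23.8% of all genes tested and 12.4% of the 1659 tested genes with at least the mean coverage of *Rps15a*. Such small sizes were not particular to the core members, since 1.38% of the 218 tested genes of the ribosome biogenesis, mitochondrial ribosomal protein and translation factor lists reached 2-fold. The median log2 fold change was 0.07 over the core members and 0.00 over all genes tested. Its sign was the same under each scaling tried, from 0.05 with quantile normalization to 0.08 with relative log expression size factors. The quartiles of the core members were -0.14 and 0.27, and those of all genes tested -0.48 and 0.50. Replicates were close, with a median coefficient of variation over the core members of 2.50% in the KSFM-Ca2+ cells and 2.77% in the DKSFM cells, so changes of a few percent could be called.

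**Figure D2:**
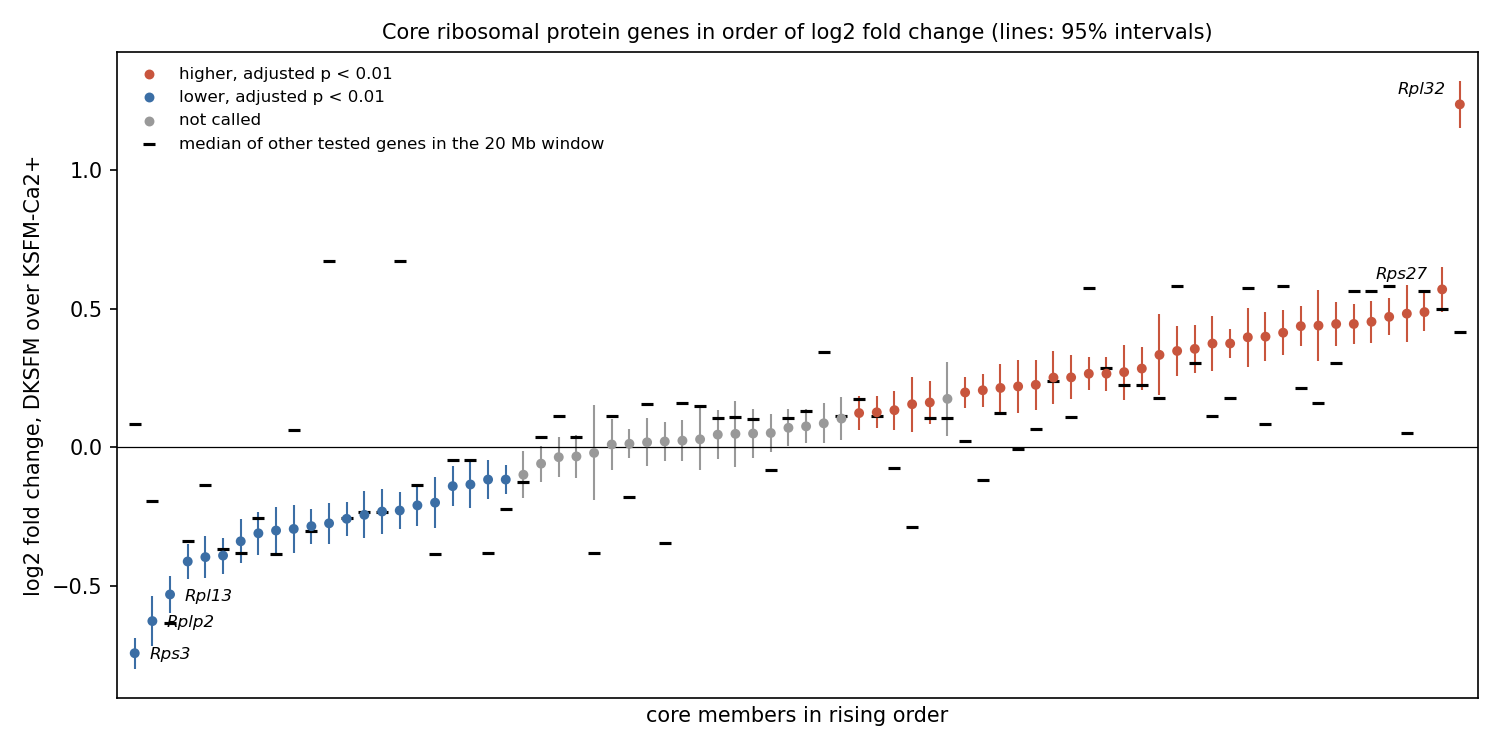
Log2 fold change (DKSFM over KSFM-Ca2+, y axis) of the 76 core members in rising order, with 95% intervals from the model; red points were called higher, blue lower and grey not called. Black dashes mark the median log2 fold change of the other tested genes in the same 20 Mb window. Apart from *Rpl32* at 1.24, every member lies between -0.74 and 0.57.

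Of the 30 small subunit members 17 were higher, 6 lower and 7 not called, with a median log2 fold change of 0.16. Of the 46 large subunit members 17 were higher, 16 lower and 13 not called, with a median of 0.05. Of all genes tested, 35.6% were higher and 36.8% lower, shares near those of the large subunit members. The difference between the subunits, and that of either subunit from all genes, was not tested.

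The large change among members that rose was that of *Rpl32* (chromosome 6 from 115805514 to 115808743), which encodes a protein of the large subunit. Its normalized coverage was 2719, 2769 and 2874 in the KSFM-Ca2+ libraries and 6795, 6611 and 6316 in the DKSFM libraries. All DKSFM libraries were more than 2-fold above all KSFM-Ca2+ libraries (a log2 fold change of 1.24 with standard error 0.04 and adjusted p = 2.50e-08). The next was *Rps27* (chromosome 3 from 90212667 to 90213648), a zinc-binding protein of the small subunit. It had 2802, 2865 and 3028 in the KSFM-Ca2+ libraries and 4229, 4272 and 4397 in the DKSFM libraries (a log2 fold change of 0.57 with standard error 0.04 and adjusted p = 1.55e-06). Smaller rises without overlap, with log2 fold changes from 0.45 to 0.48, were seen in *Rpl39*, *Rpl13a* and *Rpl28*. *Rpl39*, a small protein that lines the peptide exit tunnel (chromosome X from 37082518 to 37085222), had 2254 ± 130 in the KSFM-Ca2+ libraries and 3144 ± 87.9 in the DKSFM libraries (SD, n = 3). *Rpl13a* (chromosome 7 from 45125563 to 45128745), a large subunit protein that also acts in a translational control complex, had 1550 ± 27.6 and 2147 ± 52.6. *Rpl28* (chromosome 7 from 4792965 to 4794547) had 1136 ± 30.2 and 1555 ± 47.1.

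The member that fell most was *Rps3* (chromosome 7 from 99477896 to 99483709), a protein at the entry of the messenger RNA channel that also has a role in DNA repair. Its normalized coverage was 1619, 1660 and 1670 in the KSFM-Ca2+ libraries and 986, 986 and 982 in the DKSFM libraries. The groups stood well apart (a log2 fold change of -0.74 with standard error 0.02 and adjusted p = 4.33e-08). *Rplp2* (chromosome 7 from 141447651 to 141451359), an acidic protein of the stalk that recruits translation factors, had 7643, 8043 and 8065 in the KSFM-Ca2+ libraries and 5356, 5077 and 4935 in the DKSFM libraries (a log2 fold change of -0.63 with standard error 0.04 and adjusted p = 1.57e-06). *Rpl13* (chromosome 8 from 123102350 to 123105244) had 1718, 1786 and 1800 in the KSFM-Ca2+ libraries and 1248, 1211 and 1208 in the DKSFM libraries (a log2 fold change of -0.53 with standard error 0.03 and adjusted p = 6.72e-07). These 3 genes were lower in each DKSFM library than in any KSFM-Ca2+ library. The rest of the 6 largest falls belonged to the large subunit, as do *Rplp2* and *Rpl13*. *Rpl31* (chromosome 1 from 39367851 to 39371911), near the tunnel exit, had 2248 ± 26.5 in the KSFM-Ca2+ libraries and 1688 ± 37.4 in the DKSFM libraries. *Rpl26* (chromosome 11 from 68901566 to 68904534), known also to bind the messenger RNA of p53, had 1840 ± 12.7 and 1398 ± 53.7. *Rpl7* (chromosome 1 from 16101295 to 16104433) had 2099 ± 49.5 and 1599 ± 24.5 (SD, n = 3), and these 3 genes had log2 fold changes from -0.41 to -0.39.

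**Figure D3:**
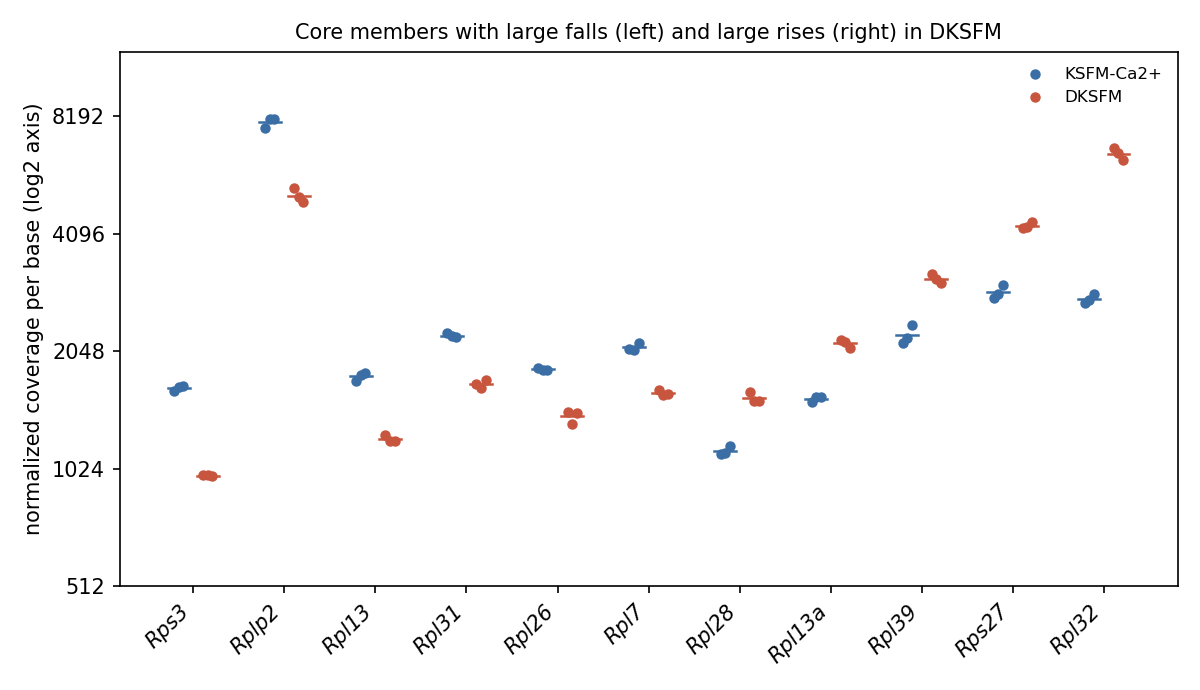
Normalized coverage per base (log2 axis) of core members with large falls (left) and large rises (right), all called and without overlap. Each point is a library, bars are group means, blue is KSFM-Ca2+ and red is DKSFM; the group means of *Rpl32* are 2787 and 6574, and those of *Rps3* are 1650 and 985.

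The starts of members from both ends of this order were compared, because the family is known for its shared 5′ TOP element. The RefSeq promoter table (GRCm38.p6) held an entry for 61 of the 82 members, 56 core and 5 like. The 30 bases around each annotated start, 15 before and 15 from the start on, were searched on the gene's strand for a C followed by at least 4 further C or T bases. Capitals mark the longest such run, and 15 bases precede the start in each line. *Rps21* and *Rps27l* each had 2 entries, and for both the entry printed holds a run. Whether their other entry holds a run is not given here. The window printed for *Rps27l* lies downstream of the gene start at 66944624.
Rps21 (chr2:180257364-180257393, plus strand): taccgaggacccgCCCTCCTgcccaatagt
Rps27 (chr3:90213634-90213663, minus strand): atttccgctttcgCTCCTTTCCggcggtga
Rpl28 (chr7:4792950-4792979, plus strand): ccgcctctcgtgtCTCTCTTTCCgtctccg
Rpl13a (chr7:45128731-45128760, minus strand): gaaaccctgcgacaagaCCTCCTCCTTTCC
Rplp2 (chr7:141447636-141447665, plus strand): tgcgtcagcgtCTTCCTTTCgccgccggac
Rpl31 (chr1:39367836-39367865, plus strand): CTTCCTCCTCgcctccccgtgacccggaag
Rps3 (chr7:99483695-99483724, minus strand): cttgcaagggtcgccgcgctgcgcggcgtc
Rpl26 (chr11:68901551-68901580, plus strand): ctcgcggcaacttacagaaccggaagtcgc
Rps27l (chr9:66946071-66946100, plus strand): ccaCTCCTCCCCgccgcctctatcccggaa
Rpl32l (chr10:20208424-20208453, plus strand): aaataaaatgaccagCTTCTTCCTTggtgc
Such a run was present near an annotated start of 37 of the 56 core genes (66.1%) and of 40.3% of all 27025 genes in the table. It was found in 17 of 25 core genes called higher and in 9 of 16 called lower. The letters CGGAAG, searched over the 300 bases of each entry on both strands, were present in 39 of the 56 core genes (69.6%) and in 18.8% of all genes, with 16 of 25 among those called higher and 12 of 16 among those called lower. The windows of *Rps3* and *Rpl26* hold no such run, which says only that these letters are absent there. The 2 features were thus found in part of the members that rose and in part of those that fell, and the difference was not tested. The matches are descriptions of sequence and not of use.

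Where a member lies on the chromosomes tracked its direction more closely. For each core member the median log2 fold change of the other tested genes in its 20 Mb window was taken, over 28 to 314 genes. Among the 49 core members in windows with a positive median, 30 were higher and 4 lower in the DKSFM cells. Among the 27 in windows with a negative median, 4 were higher and 18 lower. Of all genes tested, 35.6% were higher and 36.8% lower. By the split itself, the other genes of a window lean to the sign of its median. Their share called is not given here, so these counts are no result about the members alone. Across the 76 members the log2 fold change had a Pearson's r of 0.62 and a Spearman's rho of 0.69 with the window median. This correlation is across genes, which are not independent replicates, and members of 1 window share its median. The other tested genes with at least the coverage of *Rps15a* had an r of 0.21 and a rho of 0.41 with the median of their window (n = 1581 genes), their own value included. Length had a weaker relation, with an r of -0.33 between log2 fold change and transcript length.

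Chromosome 7, chosen after its values were seen, shows both directions. All 8 core members in its first 60 Mb were higher in the DKSFM cells. Their median log2 fold change was 0.43, in windows whose medians were 0.56 to 0.58. *Rpl28* and *Rpl13a* are among them. Of the 6 members beyond, 4 were lower, among them *Rplp2* in a window with a median of -0.20 and *Rps3*, which fell against a window median of 0.08. Of all genes tested, 35.6% were higher and 36.8% lower. The share of other genes called in these stretches is not given here, so the counts are no result about the members alone.

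When each library was centred on the other tested genes of the window, the calls among the core members dropped to 21 higher and 12 lower, and none reached 2-fold. Of all 12401 genes tested in that fit, 4156 were higher and 4210 lower, and 2728 were called with at least a 2-fold change. Of the 34 first called higher 15 kept the call, 15 were no longer called and 4 were called lower. Of the 22 first called lower 6 kept the call, 13 were no longer called and 3 were called higher. The median log2 fold change of the core members was then 0.00. Among the members named above for large changes, *Rpl13a*, *Rpl28* and *Rpl13* turned their sign with no call (-0.08, -0.11 and 0.09), and *Rps27*, *Rpl31* and *Rpl7* were not called (adjusted p = 0.0411, 0.938 and 0.573). *Rpl32* was still higher (a log2 fold change of 0.83 with standard error 0.04 and adjusted p = 5.45e-07), and so was *Rpl39* (0.42). *Rps3* was still lower (-0.81, standard error 0.03, adjusted p = 8.89e-08), and so were *Rplp2* (-0.39) and *Rpl26* (-0.25). Why genes of a window shifted together was not tested.

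**Figure D4:**
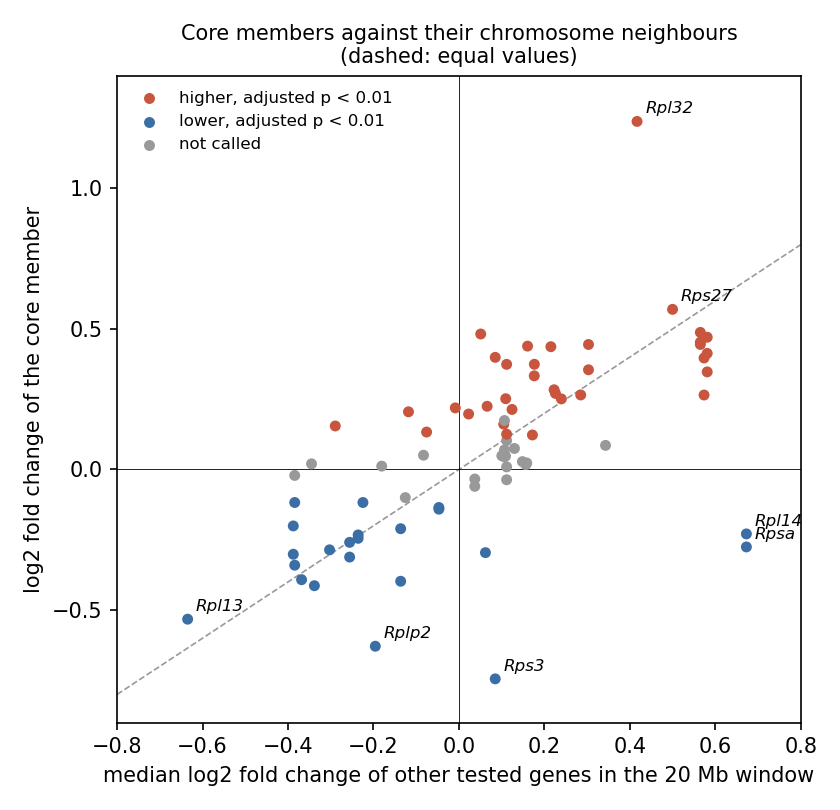
Log2 fold change of each core member (y axis) against the median log2 fold change of the other tested genes in its 20 Mb window (x axis); the dashed line marks equal values, red points were called higher, blue lower and grey not called. Most points follow the line, while *Rpl32* lies above it and *Rps3*, *Rpsa* and *Rpl14* lie below it.

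Only 4 core members lay at least 0.5 from the median of their window, namely *Rpl32*, *Rps3*, *Rpsa* and *Rpl14*. *Rpsa*, the small subunit protein that also serves as a laminin receptor, and *Rpl14* are neighbours near the end of chromosome 9. *Rpsa* (from 120127766 to 120132369) had a normalized coverage of 965, 967 and 1011 in the KSFM-Ca2+ libraries and 811, 787 and 835 in the DKSFM libraries. *Rpl14* (from 120571517 to 120574653), of the large subunit, had 1371, 1362 and 1410 in the KSFM-Ca2+ libraries and 1207, 1154 and 1174 in the DKSFM libraries. Both were lower without overlap (log2 fold change -0.28, adjusted p = 7.42e-05, and -0.23, adjusted p = 9.75e-05), while the 36 other tested genes of the window had a median of 0.67. This window is the last of the chromosome, cut short by its end, and both genes lie at its lower edge. In the window before it, *Rpl29* (from 106428889) had a log2 fold change of 0.05, and -0.06 once centred. The distance of *Rpsa* and *Rpl14* from genes on the other side of that edge was not tested.

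The stalk of the large subunit, through which elongation factors dock, moved unevenly. *Rplp0*, its base (chromosome 5 from 115559467 to 115563729), had 3196, 3258 and 3351 in the KSFM-Ca2+ libraries and 3150, 3098 and 3156 in the DKSFM libraries, and was not called (a log2 fold change of -0.06 with standard error 0.03 and adjusted p = 0.0786). It was called lower under quantile normalization (log2 fold change -0.24) and with the length and GC correction (-0.20). *Rplp1* (chromosome 9 from 61913283 to 61914510), the partner of *Rplp2*, had 6373, 6446 and 6771 in the KSFM-Ca2+ libraries and 5333, 5139 and 5310 in the DKSFM libraries (a log2 fold change of -0.31 with standard error 0.03 and adjusted p = 4.20e-05). Thus both acidic proteins were lower, *Rplp2* by more, and *Rplp1* lost its call once centred on its window (adjusted p = 0.149).

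*Rpl5* and *Rpl11* join the 5S ribosomal RNA in a particle that can bind the p53 regulator Mdm2. *Rpl5* (chromosome 5 from 107900508 to 107909005) had 759, 787 and 792 in the KSFM-Ca2+ libraries and 760, 790 and 735 in the DKSFM libraries, which overlap (log2 fold change -0.03 with a 95% interval from -0.11 to 0.04). *Rpl11* (chromosome 4 from 136049354 to 136053393) had 506, 509 and 547 in the KSFM-Ca2+ libraries and 616, 605 and 589 in the DKSFM libraries (a log2 fold change of 0.21 with standard error 0.04 and adjusted p = 7.61e-04). Only the second was called, and its call was lost with only the libraries marked as combined (adjusted p = 0.0236) and when centred on its window (adjusted p = 0.0127). The mark is a word in the file names of KSFM-Ca2+ replicate 3 and all DKSFM libraries, and its meaning is not stated.

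*Rps6*, the small subunit protein phosphorylated after growth signals (chromosome 4 from 86854099 to 86857367), had 486, 479 and 496 in the KSFM-Ca2+ libraries and 555, 563 and 566 in the DKSFM libraries. It rose without overlap (a log2 fold change of 0.21 with standard error 0.03 and adjusted p = 1.00e-04) in a window with a median of -0.12. *Rps27a*, made as a fusion with ubiquitin (chromosome 11 from 29545842 to 29548040), had 2059, 2140 and 2161 in the KSFM-Ca2+ libraries and 2235, 2149 and 2054 in the DKSFM libraries. The groups overlapped (log2 fold change 0.02 with a 95% interval from -0.07 to 0.10).

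The 6 like paralogs were unequal in level. *Rps27l* (chromosome 9 from 66944624 to 66949522), a paralog of *Rps27* known as a p53 target, was as abundant as a core member. Its normalized coverage was 2303, 2305 and 2381 in the KSFM-Ca2+ libraries and 2081, 2169 and 2014 in the DKSFM libraries. The paralog was lower without overlap (a log2 fold change of -0.16 with standard error 0.03 and adjusted p = 0.00252) while *Rps27* was higher. The call of *Rps27l* is marginal, being lost without KSFM-Ca2+ replicate 3 (adjusted p = 0.0104) or without DKSFM replicate 1 (adjusted p = 0.0128), and its window had a median of -0.26. It was also lost with the length and GC correction (adjusted p = 0.0103) and with only the libraries marked as combined (adjusted p = 0.0115). Centred on their windows, *Rps27l* (0.08) and *Rps27* (0.10) had the same sign and no call, so the contrast between them was no longer seen.

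The other 5 like paralogs were near or at the bottom of the scale, where values step by 0.1. *Rps4l* (chromosome 6 from 148354656 to 148355596), annotated in RefSeq as a transcribed pseudogene, had no coverage, listed at 0, in the KSFM-Ca2+ libraries and 4.8 in each DKSFM library before normalization. It passed the filter only through the DKSFM libraries, so that a difference was built in, and the group at 0 allows no fold. Its core counterpart *Rps4x* (chromosome X from 102184941 to 102189391) had 1650, 1631 and 1649 in the KSFM-Ca2+ libraries and 1894, 1902 and 1856 in the DKSFM libraries (a log2 fold change of 0.20 with standard error 0.02 and adjusted p = 9.43e-05). *Rpl32l* (chromosome 10 from 20208439 to 20209030) had 0.3, 0.4 and 0.2 in the KSFM-Ca2+ libraries before normalization, and 1.1, 1.1 and 0.8 in those of the DKSFM cells, far below *Rpl32*. It too passed the filter only through the DKSFM libraries. Whether the coverage of the 2 low paralogs came from reads of their counterparts was not tested. *Rpl10l*, *Rpl39l* and *Rpl3l* were listed at 0 in all 6 libraries and did not enter the test. Of their counterparts, *Rpl10* (chromosome X from 74270816 to 74273135) had 877 ± 30.1 in the KSFM-Ca2+ libraries and 714 ± 26.9 in the DKSFM libraries (SD, n = 3; log2 fold change -0.30, adjusted p = 1.18e-04). *Rpl3* (chromosome 15 from 80077781 to 80083406) had 1021 ± 8.73 and 1029 ± 3.45 and was not called (log2 fold change 0.01 with a 95% interval from -0.04 to 0.06). It was called higher under quantile normalization (0.09) and once centred on its window (0.21). *Rpl39* is described above among the members that rose.

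Some ribosomal protein genes have symbols that the rule does not take. *Rps3a1* (chromosome 3 from 86137940 to 86142668) fell without overlap, from 876 ± 22.3 to 715 ± 22.8, in a window with a median of 0.50. *Rpl22l1* (chromosome 3 from 28805508 to 28807424), the paralog of *Rpl22*, had 2715, 2747 and 2793 in the KSFM-Ca2+ libraries and 2210, 2291 and 2025 in the DKSFM libraries (a log2 fold change of -0.34 with standard error 0.04 and adjusted p = 1.51e-04, or -0.13 once centred on its window). Its core relative *Rpl22* went the other way, with 815, 846 and 812 in the KSFM-Ca2+ libraries and 1007, 999 and 940 in the DKSFM libraries (a log2 fold change of 0.25 with standard error 0.03 and adjusted p = 1.81e-04).

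*Fau*, which encodes Rps30 fused to a ubiquitin-like protein, had 1782 ± 42.4 in the KSFM-Ca2+ libraries and 1809 ± 59.4 in the DKSFM libraries (SD, n = 3). *Rack1*, a scaffold on the small subunit, had 2166 ± 32.2 and 2181 ± 22.6. Both were not called and overlapped, although *Fau* was called lower with the length and GC correction (log2 fold change -0.16) and *Rack1* higher once centred on its window (0.13). *Rpl7l1* had 110 ± 4.22 and 101 ± 3.56, not called (adjusted p = 0.0200), but was called lower once centred on its window (-0.28) and when scaled by library totals only (adjusted p = 0.00702). *Rpl36al* had 218 ± 10.3 and 247 ± 13.8, a call (log2 fold change 0.18, adjusted p = 0.00848) that was lost with any library left out. The adjusted p was 0.0312, 0.0108 and 0.0167 without KSFM-Ca2+ replicate 1, replicate 2 and replicate 3, and 0.0234, 0.0147 and 0.0142 without DKSFM replicate 1, replicate 2 and replicate 3. Centred on its window, *Rpl36al* had 0.03 (adjusted p = 0.670). *Rps27rt*, a retrotransposed copy of *Rps27* on chromosome 9, had 2412 ± 97.6 and 3579 ± 72.3. Its log2 fold change of 0.57 equals that of *Rps27* on chromosome 3, while the medians of their windows were 0.11 and 0.50, and the coverage of these copies cannot be told apart here.

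The genes that build ribosomes and run translation were described beside the core members, each list by its counts. Of 90 ribosome biogenesis genes, 17 were higher and 48 lower in the DKSFM cells (median log2 fold change -0.22). Of 78 mitochondrial ribosomal protein genes, 12 were higher and 41 lower (median -0.21). Of 40 initiation factor genes 6 were higher and 23 lower (median -0.22), and of 10 tested elongation and termination genes 2 were higher and 8 lower (median -0.35). The lower calls were thus 52.6% to 80.0% of these lists, against 28.9% of the core members and 36.8% of all genes tested. No set was tested, and the lists hold genes that work together.

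The genes at the ends of each list show the ranges. Among the biogenesis genes, *Wdr36* of the small subunit processome fell most, with 337, 347 and 361 in the KSFM-Ca2+ libraries and 113, 117 and 115 in the DKSFM libraries (a log2 fold change of -1.60 with standard error 0.03). *Cd3eap*, a subunit of RNA polymerase I, rose most, from 20.3 ± 0.876 to 38.5 ± 2.34 (log2 fold change 0.92, or 0.36 once centred on its window). *Ncl*, which encodes nucleolin, and *Npm1*, which encodes nucleophosmin, were chosen after their values were seen and were both lower (-0.71 and -0.35). Among initiation factors, *Eif3c* had 630, 633 and 632 in the KSFM-Ca2+ libraries and 222, 227 and 225 in the DKSFM libraries (a log2 fold change of -1.49 with standard error 0.02). *Eif3k*, of the same complex, rose (0.47) but had -0.09 once centred on its window of chromosome 7. *Eif5a2* fell most of the elongation list, from 12.2 ± 0.742 to 3.68 ± 0.0630 (log2 fold change -1.70). *Gspt1*, a termination factor, rose (0.33) but was called lower once centred on its window (-0.19). The mitochondrial list ran from *Mrps28* (-0.98, or -0.49 once centred on its window) to *Mrpl36* (0.72).

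**Figure D5:**
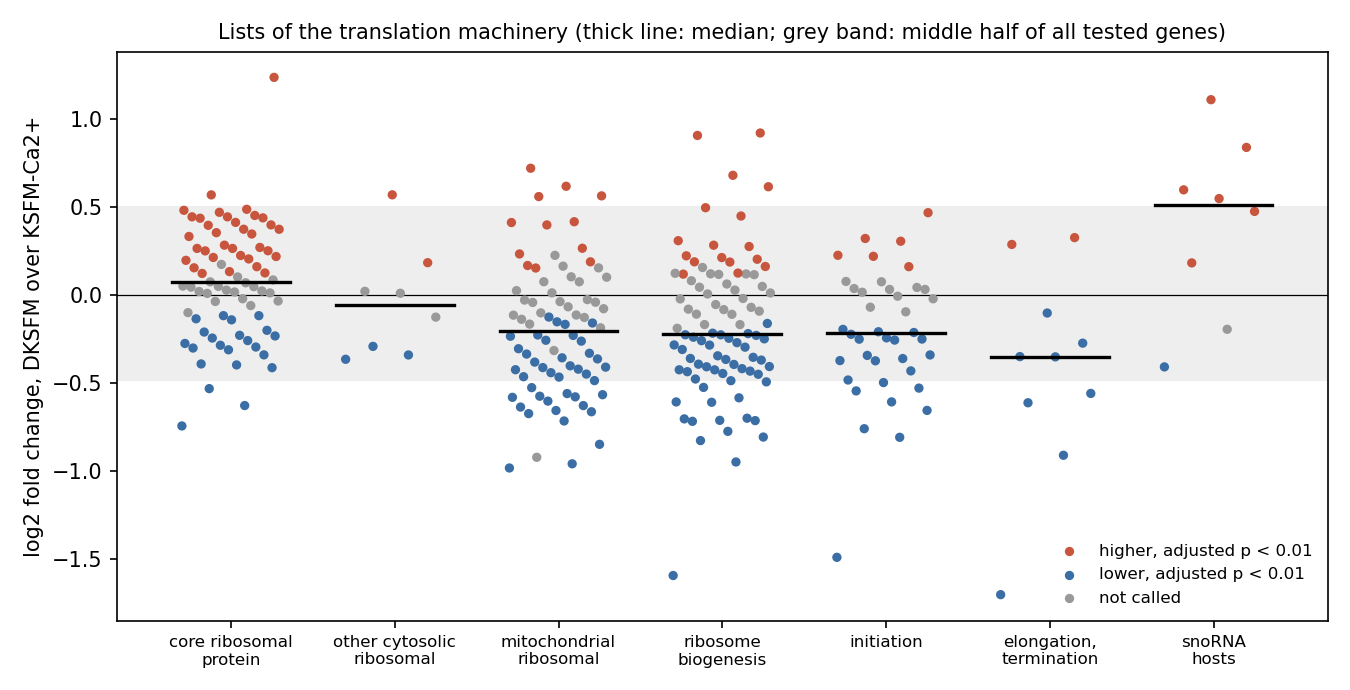
Log2 fold change (DKSFM over KSFM-Ca2+, y axis) of the tested genes of 7 lists, each point a gene, red when called higher, blue lower and grey not called, with the list's median as a thick line. The grey band runs between the quartiles of all genes tested, -0.48 and 0.50; the medians are 0.07 for the core members and -0.21 for the mitochondrial ribosomal protein genes.

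Of 17 other messenger RNAs known for a 5′ TOP element, 2 were higher and 11 lower (median log2 fold change -0.27), where 35.6% of all genes tested were higher and 36.8% lower. They include *Fau*, *Rack1* and genes of the factor lists already counted, and their difference from the core members was not tested. *Eef2*, the translocation factor, was higher, with 1303 ± 21.4 in the KSFM-Ca2+ libraries and 1591 ± 24.2 in the DKSFM libraries (SD, n = 3; log2 fold change 0.29), and was not called once centred on its window (adjusted p = 0.0671). *Eif3f* was lowest (-0.81, or -0.42 once centred on its window). Of 8 host genes of small nucleolar RNAs, whose spliced RNAs also carry this element, 6 were higher and 1 lower (median 0.51), beside the same shares of all genes, and this difference was not tested either. *Snhg3* rose from 21.7 ± 0.901 to 47.0 ± 2.01 (log2 fold change 1.11), and *Snhg6* fell from 140 ± 5.29 to 106 ± 9.92 (-0.41), in a window with a median of -0.37. The call of *Snhg6* was lost once centred on this window (-0.04, adjusted p = 0.462) and with only the libraries marked as combined (adjusted p = 0.0162).

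In a list of 16 genes that control translation of these messenger RNAs or transcription of ribosomal genes, 7 of the 15 tested were higher and 2 lower, with a median log2 fold change of -0.04 and 8 negative values, where 35.6% of all genes tested were higher and 36.8% lower. *Deptor*, an inhibitor of the kinase mTOR, had 0.919, 0.689 and 0.589 in the KSFM-Ca2+ libraries and 9.35, 9.61 and 11.7 in the DKSFM libraries (a log2 fold change of 3.64 with standard error 0.17 and adjusted p = 2.60e-07). *Eif4ebp1*, a repressor of cap-dependent initiation, fell from 349 ± 5.78 to 218 ± 9.81 (log2 fold change -0.68, or -0.36 once centred on its window). *Myc*, chosen after its values were seen, had 405, 405 and 419 in the KSFM-Ca2+ libraries and 608, 592 and 638 in the DKSFM libraries (a log2 fold change of 0.58 with standard error 0.03).

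Of 10 genes often used as qPCR references, 6 were lower, from *B2m* (-1.62) to *Pgk1* (-0.44), none was higher and 4 were not called, where 36.8% of all genes tested were lower. At -0.06 and with no call, *Rplp0* differed less between these lines than those 6 genes did. The upper quartile of the list was -0.04 and its highest value 0.06, so a difference this small was not particular to *Rplp0*. The ribosomal RNA entries varied more between replicates than any core member did. *Rn45s* had 243, 235 and 169 in the KSFM-Ca2+ libraries and 24.2, 25.5 and 57.8 in the DKSFM libraries (a log2 fold change of -2.69 with standard error 0.31), and *Mir6236* had a log2 fold change of -3.05 (standard error 0.43).

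The labelled cell type was seen in both lines. All 6 keratinocyte markers were tested and higher in the DKSFM cells, and their summed normalized coverage was 18917, 19101 and 18863 in the KSFM-Ca2+ libraries and 47715, 44083 and 48087 in the DKSFM libraries, with *Krt14* the most abundant. This list runs from *Trp63* (0.13) to *Perp* (1.62), and its part in the shares of the ribosomal protein genes was not tested beyond leaving out the 10 genes of highest coverage, *Krt14* and *Krt5* among them, after which the DKSFM shares were still above the KSFM-Ca2+ shares. Markers of other cell types were low. The summed normalized coverage was at most 20.6 for 5 immune markers, mostly *Cd68*, with *Cd3e* at 0. It was at most 8.30 for 4 endothelial markers, mostly *Pecam1*, with *Cdh5* at 0, and at most 2.34 for 6 fibroblast markers, all *Pdgfra*, with *Col1a1*, *Col1a2*, *Col3a1*, *Dcn* and *Lum* at 0. *Pecam1*, *Cd68* and *Pdgfra* were each called higher in the DKSFM cells (log2 fold change 1.42, 0.60 and 0.95). For 5 melanocyte markers the sum was at most 0.886, mostly *Pmel*, with *Dct* and *Tyr* at 0. The markers of the tissues of the restricted paralogs were low too, at most 0.530 for 5 germ cell markers, with *Prm1* and *Tnp1* at 0, and at most 7.20 for 6 striated muscle markers, mostly *Tnnt3*, with *Myh2* and *Myh4* at 0. For 5 erythroid markers the sum was at most 0.106, all *Alas2*, and the 4 globin genes were at 0.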

How the data were processed

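The authors deposited coverage as a signal, namely the average number of reads over each base of a gene, rounded to 1 decimal and not scaled to library size, for 24982 genes in 6 libraries. The libraries were directional polyadenylated RNA-seq. According to the processing notes, the authors used bcl2fastq, STAR, DESeq2 and the mm10 build, and the paper's methods name the BaseSpace RNA-Seq Alignment app with RefSeq annotation. How coverage was computed is not stated, and the paper gives an average depth but not the reads of each library. Conditions and replicate numbers come from the sample labels.

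Libraries were scaled by trimmed means of M values without weights (trims of 30% of M and 5% of A values, factors from 0.991 to 1.01). Genes reaching 0.5 after scaling in 3 or more libraries were fitted as log2(normalized coverage + 0.1) in limma 3.58.1 (R 4.3.3) with an intensity trend and no covariate, and called at a Benjamini-Hochberg adjusted p under 0.01 over all 12450 genes tested. The scripts were tested on simulated data. Fold changes are on this log2 scale, which understates low genes.

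Positions are from RefSeq (GRCm38.p6), transcript length and GC content from GENCODE M21. Windows are 20 Mb bins counted from the start of each chromosome, so the last bin of a chromosome can be shorter. Their medians were taken over the tested genes that are not members. Centring used bins with at least 10 such genes. The members and lists were chosen with earlier results of these data known. Named with values are the like paralogs and their counterparts, the largest falls (6) and rises (5) among called core members without overlap, the highest and lowest core member, the stalk, *Rpsa*, *Rpl5*, *Rpl11*, *Rps6*, *Rps27a*, the ribosomal genes outside the rule, the ends of each list and members failing the filter; others were chosen after their values were seen. *Rpl14*, *Rpl22* and the members of chromosome 7 are such genes. Some genes that this would name are not reported here.

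Alternatives were other scalings, filters, pseudocounts of 0.5 and 1, no trend, a replicate block, an adjusted p of 0.05, each library left out, libraries marked as combined only, a length and GC correction, and centring on 20 Mb windows.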

Additional observations from a re-analysis of the deposited data

How the results depend on the processing

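The counts of core members higher (34) and lower (22) stayed within 1.5 times under each other alternative tried, and the exception was centring on the 20 Mb windows, with 21 higher, 12 lower, 0 changed 2-fold and a median log2 fold change of 0.0015. Over all 12401 genes tested in that fit, 4156 were higher and 4210 lower. Centring subtracts the window's shift and also changes the standard errors, and their parts in the drop among the core members were not separated. The word combined stands in the file names of KSFM-Ca2+ replicate 3 and of all 3 DKSFM libraries. Its meaning is not stated, and it nearly coincides with the group. These libraries alone, where the lone KSFM-Ca2+ library is assumed to vary like the others, gave 24 higher and 19 lower, and 23 instead of 37 genes higher in the 4 translation lists. With fewer libraries fewer calls can be made. With each library left out in turn, 30 to 35 core members were higher and 19 to 21 lower. Of the 12578 to 12671 genes tested in those fits, 4083 to 4303 were higher and 4221 to 4357 lower. Leaving out the 10 genes of highest coverage put the summed share of the core members at 10.04%, 10.23% and 10.37% in the KSFM-Ca2+ libraries and 11.20%, 10.95% and 10.89% in the DKSFM libraries, 4 of the 10 genes being core members.

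Of 1017 pairs of an alternative and 1 of 51 named genes, 9 had the opposite sign with a call in at least 1 of the 2 fits. Other named genes, such as *Rpl14*, *Rpl22* and *Myc*, were not in this tally. Sign changes of genes called in neither fit, such as *Rps27a*, are not counted. Centring on the windows gave 7 of the 9 pairs, *Rpl13* (0.0897), *Rpl13a* (-0.0792), *Rpl28* (-0.109), *Rps15a* (0.27), *Rps27l* (0.0828), *Eif3k* (-0.0945) and *Gspt1* (-0.19). Quantile normalization turned *Rps21* (-0.29), the highest gene of each KSFM-Ca2+ library, where *Krt14* was the highest of each DKSFM library. The length and GC correction turned *Fau* (-0.16). The cause of these sign changes was not tested. In 37 further pairs the call was lost and in 8 it was gained, with the sign kept.

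Replicate numbers are shared between groups only as numbers. The correlation of deviations was -0.00848, 0.0229 and -0.0205 in the 3 same-numbered pairs. With the number as a replicate block 33 core members were higher and 20 lower, with *Rps15a* and *Rpl36al* no longer called. In that fit 4287 of all 12450 genes tested were higher and 4438 lower.

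Values near 0 step by 0.1, so the low paralogs are coarse. Coverage shared with pseudogenes and retrotransposed copies could not be separated.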
